A study of Mus musculus with 14 samples.

Results

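The genes described here encode the subunits of the proteasome, together with the proteins that assemble, cap or inhibit it. They were chosen by symbol: protein-coding genes named Psma to Psmg followed by a digit, leaving out the 3 interferon-inducible catalytic genes Psmb8, Psmb9 and Psmb10. Of 47 such genes, 46 reached the minimum log2 value of 3.32, which is an unlogged value of 10, in 3 or more libraries, among 11886 genes that did so. The exception, Psmc3ip, stood below it in all 14 libraries and is a recombination cofactor rather than a subunit. By class, the 46 comprise 16 core subunits (8 alpha and 8 beta), 20 genes of the regulatory particle (6 ATPases and 14 others), 5 activator genes, 1 inhibitor and 4 core assembly chaperones.

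The proteasome degrades proteins marked with ubiquitin and supplies peptides for presentation on MHC class I. Its core particle is a barrel of stacked rings, in which alpha subunits form the gate and 3 kinds of beta subunit carry the active sites. The regulatory particle sits on the end of the barrel. Its ATPases unfold the substrate and thread it into the core, while its other subunits bind ubiquitin chains and remove them. In macrophages, interferon-gamma exchanges the standard catalytic subunits for inducible ones and raises the activator encoded by Psme1 and Psme2.

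All 14 libraries came from cells of Balb/c mice that carried tumours of 4T1, a mouse mammary carcinoma line, after injection into the fat pad. Before injection the carcinoma cells had been exposed either to DMSO, the solvent, or to 5 μM of GSK269962A for 5 days. The macrophages themselves were not treated in culture. Tumours were taken 8 days later (3 DMSO and 3 GSK269962A libraries) or 14 days later (4 and 4), and F4/80+ cells were retained on magnetic beads in 2 rounds. The labels do not say whether libraries are separate mice, so p-values measure the spread between these samples, which may be technical.

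All 10 macrophage markers were measured above the minimum, with means of 11.32 to 12.05 on the log2 scale. On day 14, 3 of these 10 were higher and 2 lower in GSK269962A libraries by limma (median log2 change 0.39), and 1 of 2 measured B and plasma cell markers was lower; their part in the proteasome results was not tested. Markers of 4T1 epithelium were present too: 9 of 14 passed the minimum, and their mean was 5.84 to 6.61 (DMSO) and 5.88 to 7.33 (GSK269962A) on day 8, then 5.19 to 5.65 and 4.96 to 5.12 on day 14. All 5 endothelium markers passed, with means of 6.49 to 6.93 (DMSO) and 6.26 to 7.09 (GSK269962A) on day 8. On day 14 these were 5.86 to 6.35 and 5.98 to 6.11. Of 8 neutrophil markers 4 passed, with day 14 means of 6.35 to 6.69 (DMSO) and 6.26 to 6.66 (GSK269962A). Of these lists, only epithelium was fitted as a covariate. Within a group, libraries correlated at 0.967 to 0.993 across genes. A pair of overlapping ribosomal RNA genes divided the libraries: AY036118 was the high one in 9 libraries, among them all 4 GSK269962A day 14 libraries but only DMSO day 14 libraries 1 and 3, and Gm42418 in the other 5. On day 8, Gm42418 was the high one in GSK269962A library 1 and in DMSO libraries 1 and 3. That GSK269962A library also had the highest epithelium mean, 7.33. In bulk samples, fewer cells of a type and less RNA per cell cannot be told apart.

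Promoter windows are shown first, because genes of 1 complex moved in opposite directions on day 14 and their start regions can be read side by side. RefSeq (GRCm38.p6) windows of 250 bases before to 50 after a start were found for 38 of the 46 genes. The windows below belong to the pair of genes with the largest day 14 rise, Psma2 and Psma1, the one with the largest fall, Psma6, and the ubiquitin receptor Psmd4. Capitals mark CCAAT, the letters bound by NF-Y, and CCGGAAG, the core bound by ETS factors, on either strand. Psma6 has an upstream and a downstream start.
Psma2, chr13:14612992-14613291, plus strand: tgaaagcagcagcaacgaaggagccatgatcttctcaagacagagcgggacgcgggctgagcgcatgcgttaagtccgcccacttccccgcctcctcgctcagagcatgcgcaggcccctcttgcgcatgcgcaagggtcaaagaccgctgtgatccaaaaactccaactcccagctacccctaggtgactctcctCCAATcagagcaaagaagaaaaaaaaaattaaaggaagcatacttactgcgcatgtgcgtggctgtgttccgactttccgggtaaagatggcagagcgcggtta
Psma1, chr7:114276067-114276366, minus strand: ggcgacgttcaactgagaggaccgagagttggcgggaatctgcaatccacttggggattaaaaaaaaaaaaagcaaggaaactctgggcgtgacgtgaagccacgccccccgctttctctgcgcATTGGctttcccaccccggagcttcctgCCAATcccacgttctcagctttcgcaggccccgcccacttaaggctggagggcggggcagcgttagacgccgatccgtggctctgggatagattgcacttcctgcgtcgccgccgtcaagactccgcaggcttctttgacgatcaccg
Psma6, upstream start, chr12:55383972-55384271, plus strand: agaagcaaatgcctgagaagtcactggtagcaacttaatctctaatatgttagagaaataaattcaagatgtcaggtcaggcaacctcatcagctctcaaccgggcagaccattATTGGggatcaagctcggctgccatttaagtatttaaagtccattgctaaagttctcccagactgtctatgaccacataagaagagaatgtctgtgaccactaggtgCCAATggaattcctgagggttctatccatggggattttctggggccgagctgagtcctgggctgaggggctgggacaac
Psma6, downstream start, chr12:55398575-55398874, plus strand: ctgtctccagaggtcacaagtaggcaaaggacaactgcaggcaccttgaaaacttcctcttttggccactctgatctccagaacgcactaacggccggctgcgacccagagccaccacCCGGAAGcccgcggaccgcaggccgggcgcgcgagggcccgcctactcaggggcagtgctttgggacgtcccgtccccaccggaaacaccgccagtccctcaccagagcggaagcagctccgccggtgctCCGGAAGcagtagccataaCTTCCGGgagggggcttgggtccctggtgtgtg
Psmd4, chr3:95042565-95042864, minus strand: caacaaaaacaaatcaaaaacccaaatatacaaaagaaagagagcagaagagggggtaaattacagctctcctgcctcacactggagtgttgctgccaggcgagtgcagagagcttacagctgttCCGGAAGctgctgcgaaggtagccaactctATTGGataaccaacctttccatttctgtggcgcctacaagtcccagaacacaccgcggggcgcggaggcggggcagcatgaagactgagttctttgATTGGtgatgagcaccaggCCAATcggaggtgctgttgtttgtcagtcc

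The ETS letters CCGGAAG stood in at least 1 window of 14 of the 38 genes (36.8%), against 9.93% of 27025 genes with a window. CCAAT was found in 13 of 38 (34.2%), against 41.1% of all. TGACNNNGC, the core of the antioxidant response element bound by Nfe2l1 and Nfe2l2 with small Maf partners, was found in 6 (15.8%), against 14.0%. Both strands were searched, and overlapping matches were counted. The 27025 genes include many outside the 11886 tested here, and the shares among tested genes were not computed. Among the genes that passed the day 14 test, CCGGAAG stood in 5 of 8 that fell and in none of the 3 with a window that rose, while CCAAT stood in 2 of 8 and 3 of 3. Those 2 are Psma6 and Psmd4, so the windows printed above are not typical of the genes that fell. Such a match is a description of letters and not a site.

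Subunits occupy the complex in equal numbers, but their transcripts were listed at very different levels. On a per-length scale (the mean log2 value over 14 libraries minus log2 of transcript length in kilobases), alpha subunits ranged from 11.9 for Psma6 to 5.59 for Psma5, without the testis alpha subunit Psma8 at 2.82. Beta subunits ranged from 11.8 for Psmb4 to 6.11 for Psmb7, without the thymus subunit Psmb11 at 2.499. Of the standard catalytic subunits, the caspase-like Psmb6 stood at 11.4, the chymotrypsin-like Psmb5 at 9.82 and the trypsin-like Psmb7 at 6.11 on this scale. Psme2, a subunit of the interferon-inducible activator, was the highest of all 46 at 12.7. Sequence shared with other genes limits these levels: the share of 31-base transcript words also found in another gene was 78.4% for Psme2b, 71.7% for Psmb5, 61% for Psma5 and 33.5% for Psme2. It was 32.2% for Psmc1, 31.6% for Psmd2 and 26.6% for Psmd9, and 20.3% to 21.8% for Psma3, Psmb3 and Psma4. How reads were divided among the genes that share words is uncertain for all of these, in their levels and in their changes.

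**Figure D1:**
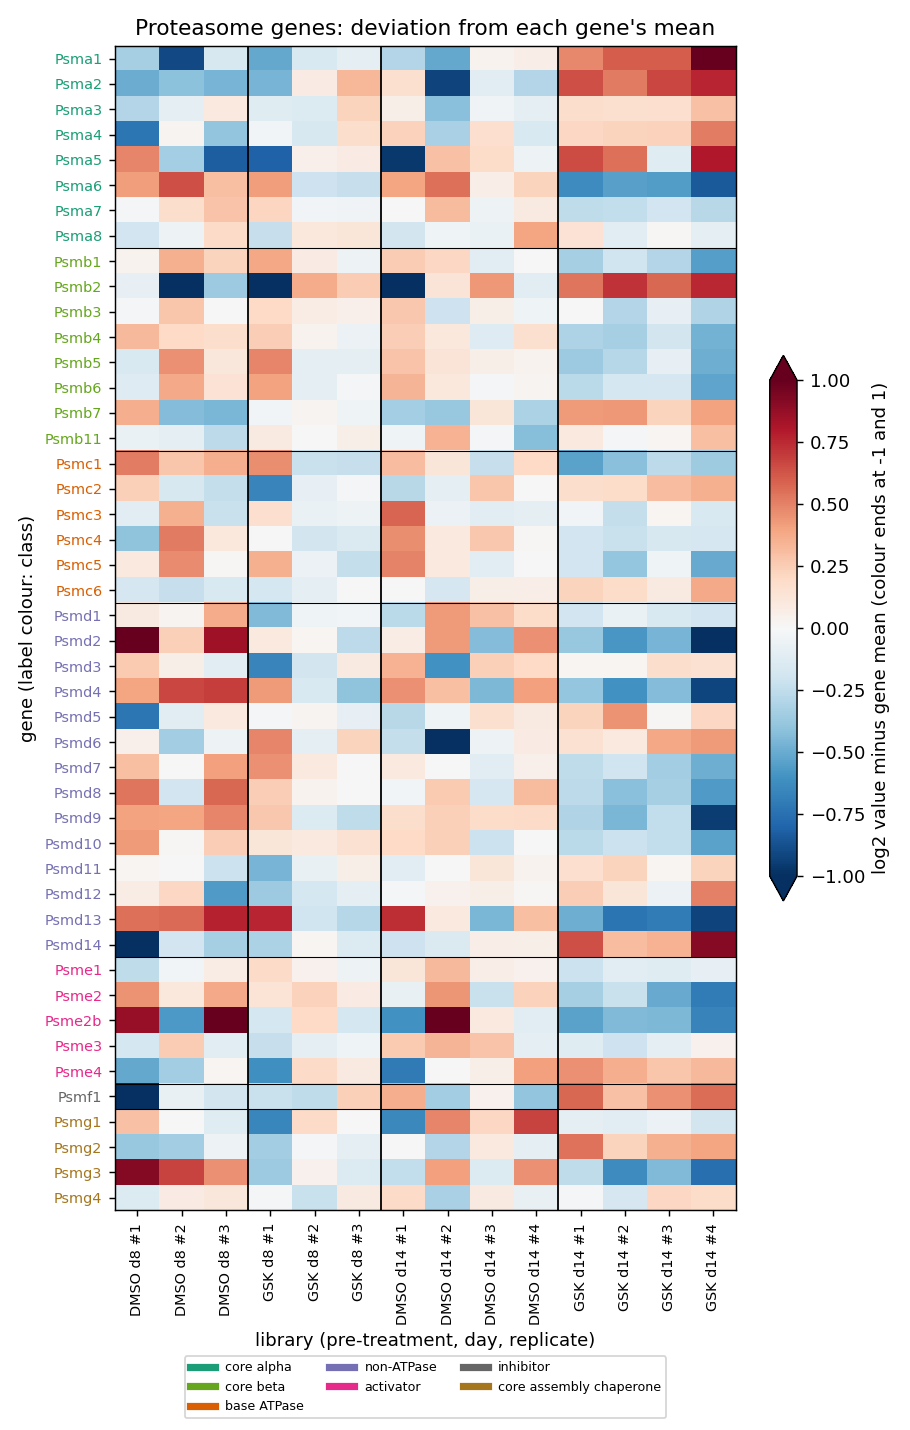
Each row is 1 of the 46 genes, ordered by class, and each column 1 of the 14 libraries; colour is the log2 value minus that gene's mean over all libraries, with the scale ending at -1 and 1. In the 4 GSK269962A day 14 columns, Psma1 and Psma2 stand above their means and Psma6, Psmd2, Psmd4 and Psmd13 below, and DMSO day 14 library 3 leans the same way for Psmd2, Psmd4 and Psmd13.

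On day 14, the first comparison asks how proteasome transcripts differed between macrophages of tumours from GSK269962A-exposed and DMSO-exposed carcinoma cells. Subunits of the same complex went both ways. By limma with Benjamini-Hochberg adjustment over all genes tested, 5 of the 46 rose, against 5.1% of all genes, and 8 fell, against 5.73%; the 13 are 28.3% of the 46, against 10.8% of all. The alpha subunits Psma2 and Psma1 rose by the most, 1.92-fold and 1.85-fold, and another alpha subunit, Psma6, fell by the most, 1.93-fold. Libraries of the 2 groups did not overlap for 24 of 46 genes, against 22% of all genes. The median log2 change was -0.23 for the 46 and 0.02 for all genes, and the SD of the changes was 0.51 against 0.41. At an unadjusted p under 0.05, 29 of 46 passed, against 27.3% of all genes.

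Alpha subunits form the outer rings and the gate of the core. Psma2 stood at log2 values of 10.06, 8.97, 9.79 and 9.60 in DMSO libraries 1 to 4 on day 14, and at 10.54, 10.42, 10.57 and 10.66 in the GSK269962A libraries. Every GSK269962A library lay above every DMSO library, and DMSO library 2 was the lowest of the 8. Psma2 rose by a log2 change of 0.94 (SE 0.20, adjusted p = 0.012).

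Psma1 stood at 7.21, 6.99, 7.54 and 7.57 in DMSO and at 7.99, 8.11, 8.12 and 8.66 in GSK269962A libraries, again with no overlap. Its log2 change was 0.89 (SE 0.20, adjusted p = 0.013 by limma). Psma6 showed the opposite order, with 12.14, 12.30, 11.81 and 11.97 in DMSO and 11.12, 11.21, 11.19 and 10.90 in GSK269962A libraries. The lowest DMSO library lay well above the highest GSK269962A library. Psma6 fell by 0.95 on the log2 scale (SE 0.16, adjusted p = 0.0047). The other 5 alpha genes did not pass: Psma5, Psma3 and Psma4 had changes of 0.61, 0.32 and 0.31, Psma7 of -0.33 and Psma8 of -0.04.

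Beta subunits form the inner rings. Psmb7, the trypsin-like subunit, stood at 5.98, 5.95, 6.45 and 6.004 in DMSO and at 6.75, 6.76, 6.55 and 6.72 in GSK269962A libraries. DMSO library 3 and GSK269962A library 3 came close to each other and the rest were well apart. Psmb7 rose by 0.60 (SE 0.18, adjusted p = 0.042 by limma).

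Psmb4, a structural beta subunit, stood at 12.25, 12.11, 11.88 and 12.17 in DMSO and 11.70, 11.68, 11.82 and 11.53 in GSK269962A libraries. It fell by 0.42 (SE 0.12, adjusted p = 0.041), and the groups did not overlap. Psmb2, also structural, had a change of 0.83 that missed the threshold (SE 0.33, adjusted p = 0.114). DMSO library 1 at 6.20 lay far below the other DMSO libraries at 7.29 to 7.83, and without it the change was 0.49 (adjusted p = 0.302). GSK269962A libraries for Psmb2 lay at 7.93 to 8.15. The catalytic subunits Psmb5 and Psmb6 had changes of -0.43 and -0.40 (adjusted p = 0.093 and 0.094) and Psmb1 of -0.43 (adjusted p = 0.056). For these 3 genes the libraries of the groups did not overlap, yet none passed.

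In the regulatory particle, none of the 6 ATPase genes passed. Their changes ran from -0.49 for Psmc1 (adjusted p = 0.059) to 0.28 for Psmc2 (adjusted p = 0.287). Of the other 14 genes, 1 rose and 4 fell. Psmd14, the deubiquitinating enzyme of the lid, stood at 6.97, 7.03, 7.24 and 7.23 in DMSO and at 7.82, 7.48, 7.52 and 8.08 in GSK269962A libraries. The groups did not overlap, and Psmd14 rose by 0.61 (SE 0.18, adjusted p = 0.045 by limma).

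Psmd4, an intrinsic ubiquitin receptor, stood at 12.28, 12.13, 11.37 and 12.24 in DMSO and at 11.44, 11.22, 11.39 and 10.90 in GSK269962A libraries. DMSO library 3 lay within the GSK269962A range, so the groups overlapped. Psmd4 fell by 0.77 (SE 0.21, adjusted p = 0.032). Psmd2, the scaffold of the base that docks ubiquitin shuttles, had the same outlying library: 11.74, 12.09, 11.23 and 12.13 in DMSO and 11.29, 11.08, 11.20 and 10.63 in GSK269962A libraries. It fell by 0.75 (SE 0.21, adjusted p = 0.037).

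Psmd13, a lid subunit, stood at 12.19, 11.55, 10.999 and 11.75 in DMSO and at 10.96, 10.72, 10.75 and 10.53 in GSK269962A libraries. DMSO library 3 was again the nearest to the GSK269962A group, here just outside it. Psmd13 fell by 0.88 (SE 0.24, adjusted p = 0.030 by limma). Psmd9, a chaperone of base assembly, was tight in DMSO (8.14, 8.20, 8.14 and 8.16) and lower in every GSK269962A library (7.66, 7.502, 7.72 and 7.01). It fell by 0.69 (SE 0.16, adjusted p = 0.015). Of the rest, Psmd6 in the lid had a change of 0.60 (adjusted p = 0.087) and Psmd8 of -0.49 (adjusted p = 0.070), while the scaffold subunit Psmd1 stood at -0.31 and the lid subunit Psmd11 at 0.15.

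Among activators, Psme2 fell by 0.53 (SE 0.16, adjusted p = 0.041), from 12.49, 13.00, 12.33 and 12.78 in DMSO to 12.22, 12.33, 12.05 and 11.86 in GSK269962A libraries. The groups met at DMSO library 3. Its partner Psme1 had a change of -0.27 (adjusted p = 0.144), with libraries that did not overlap. The nuclear activator Psme3 stood at -0.29 and Psme4, a large nuclear activator, at 0.41; Psme2b, an intronless relative of Psme2, stood at -0.71 (adjusted p = 0.225). Psmf1, which inhibits the core, had a change of 0.56 (adjusted p = 0.109).

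The 4 core assembly chaperones act in pairs on the alpha ring. Psmg2 stood at 4.91, 4.62, 5.01 and 4.82 in DMSO and at 5.46, 5.13, 5.27 and 5.30 in GSK269962A libraries, with no overlap, and rose by 0.45 (SE 0.14, adjusted p = 0.048 by limma). Its partner Psmg1 stood at -0.29 (adjusted p = 0.475). Psmg3 stood at 7.72, 8.37, 7.82 and 8.41 in DMSO and 7.71, 7.33, 7.52 and 7.21 in GSK269962A libraries. DMSO library 1 lay only just above GSK269962A library 1, and Psmg3 fell by 0.64 (SE 0.18, adjusted p = 0.035), while its partner Psmg4 stood at 0.08. In each pair 1 gene passed, Psmg2 upward and Psmg3 downward.

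**Figure D2:**
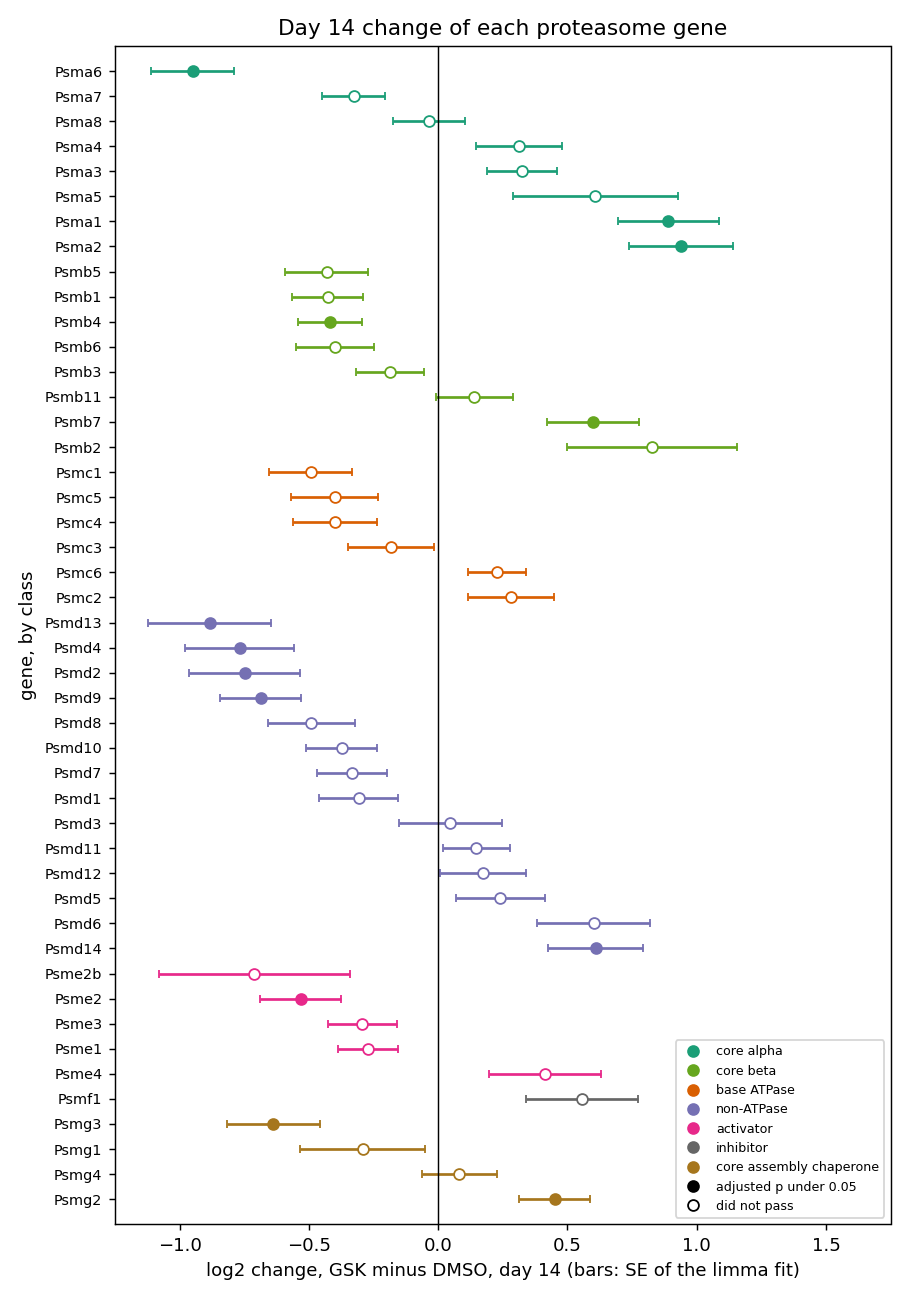
Each point is the day 14 log2 change (GSK269962A minus DMSO) of 1 gene with the SE of the limma fit, grouped by class; filled points passed the adjusted threshold of 0.05. Alpha subunits span the whole range of the 46 genes, from -0.95 for Psma6 to 0.94 for Psma2.

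**Figure D3:**
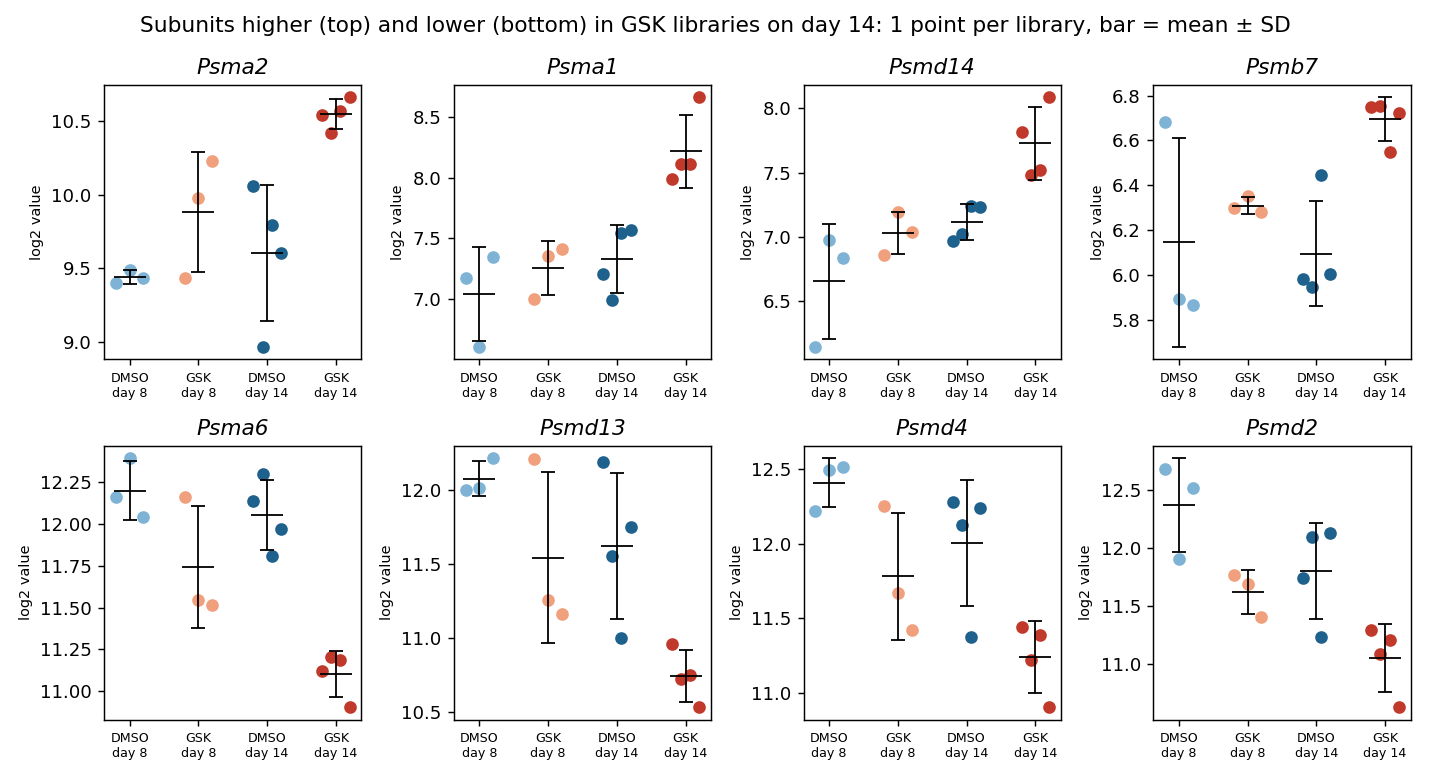
Points are log2 values of single libraries for 4 genes that rose (top) and 4 that fell (bottom) on day 14, with group mean and SD. For Psma6, Psmd13 and Psmd4, GSK269962A day 8 library 1 lies with the DMSO day 8 libraries, and libraries 2 and 3 lie below them; for Psmd4, library 3 lies within the GSK269962A day 14 range.

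The number that passed depended on single libraries. It was 1 without GSK269962A day 14 library 4, 7, 5 and 4 without its libraries 1, 2 and 3, 6, 2 and 4 without DMSO day 14 libraries 1, 2 and 4, and 8 without GSK269962A day 8 library 2. Psma6 passed in all 14 fits that left out 1 library, Psma2 in 13, and Psma1 and Psmd9 in 12 each. The other 9 were less stable: Psmg3 passed in 9, Psmd4, Psmd13 and Psme2 in 8 each, Psmd2 in 7, Psmb4 in 6, Psmb7 and Psmd14 in 5 each, and Psmg2 in 4. With the AY036118 and Gm42418 split as a term, 3 genes passed (Psma1, Psma2 and Psma6), and within the 9 AY036118-high libraries 5 did, the same 3 (at 0.84, 0.62 and -0.87) and 2 others. A covariate for the mean of the epithelium markers left 4, and the part of tumour cell RNA in the day 14 result was not tested further. After quantile normalization 2 rose and 6 fell.

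Direction on day 14 went with the level of the transcript. The cut of 8 used here and the correlations below were not fixed in advance. Of the 25 genes with a per-length level of at least 8, 5 had a positive change and 20 a negative one, with a median of -0.40. Of the 21 below 8, 15 were positive and 6 negative, with a median of 0.24. Among all protein-coding genes the shares positive were 35.7% and 57.2%. Across the 46 genes, Spearman's rho of the change was -0.61 with per-length level and -0.47 with the GC content of transcripts, against -0.21 across 10527 and -0.23 across 10529 protein-coding genes tested. These describe genes that share the same 14 libraries. The 5 genes that rose had a GC content of 41.3% to 48.7% and the 8 that fell 45.7% to 55.8%. When each library's trend with mean level was removed, 5 genes passed, 2 up and 3 down, the change of Psmb4 being -0.18, and when the trend with GC content was removed, 11 did, 2 up and 9 down. The part of level and GC content was not tested further.

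**Figure D4:**
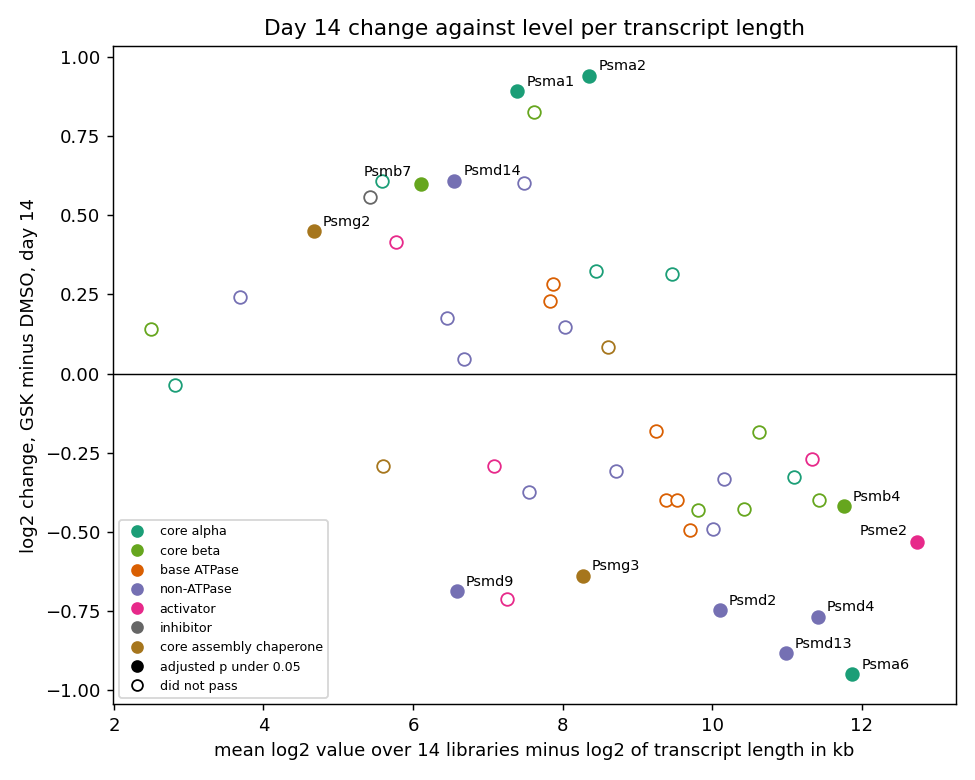
The day 14 log2 change of each of the 46 genes is plotted against its mean log2 value minus log2 of transcript length in kilobases; filled points passed the threshold and are named. Genes above a per-length level of 10 all lie below 0, and most of those under 8 lie above it.

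The second question is whether the core and the regulatory particle moved together. In each library the mean log2 value of the 20 regulatory particle genes was subtracted from that of the 16 core genes; the size of this number depends on gene lengths, so only its differences between libraries are read. It was -0.67, -0.67 and -0.73 in DMSO and -0.57, -0.42 and -0.36 in GSK269962A libraries on day 8. On day 14 it was -0.67, -0.54, -0.42 and -0.65 in DMSO and -0.33, -0.28, -0.33 and -0.22 in GSK269962A libraries. On both days every GSK269962A library lay above every DMSO library. The days were apart as well: within each pre-treatment, every day 14 library lay above every day 8 library. The differences over time were 0.12 in DMSO and 0.16 in GSK269962A libraries. In DMSO the nearest libraries of day 8 and day 14 stood at -0.670 and -0.667. The means were -0.69 ± 0.04 (SD, n = 3) and -0.45 ± 0.11 (SD, n = 3) on day 8, and -0.57 ± 0.11 (SD, n = 4) and -0.29 ± 0.05 (SD, n = 4) on day 14, differences of 0.24 and 0.28. Among DMSO libraries of day 14, the AY036118-high libraries 1 and 3 lay at -0.67 and -0.42 and the Gm42418-high libraries 2 and 4 at -0.54 and -0.65. Among GSK269962A libraries of day 8, the Gm42418-high library 1 lay at -0.57 and the AY036118-high libraries 2 and 3 at -0.42 and -0.36. In DMSO on day 8, the AY036118-high library 2 lay at -0.67 and libraries 1 and 3 at -0.67 and -0.73. The part of this split in the score was not tested. On day 14 the core mean went from 8.78 to 8.87 and the regulatory particle mean from 9.35 to 9.16; within the core, alpha genes went from 8.52 to 8.74 and beta genes from 9.04 to 9.004. The part of the link between change and level described above was not tested for this score. A score over these genes gets no p-value.

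Without Psma8, Psmb11 and the base chaperones Psmd5, Psmd9 and Psmd10, the differences were 0.24 on day 8 and 0.27 on day 14, with no overlap on either day. With medians in place of means they were 0.26 and 0.30, and the groups overlapped on both days. Over time the DMSO libraries overlapped under both of these choices, and the GSK269962A libraries with medians only. The spread among the 46 genes differed as well. This spread is not independent of the link between change and level described above, and it was not computed over all genes. The SD over genes was 2.37, 2.41 and 2.39 in DMSO and 2.45, 2.19 and 2.16 in GSK269962A libraries on day 8, and 2.43, 2.30, 2.12 and 2.26 in DMSO against 2.01, 2.04, 2.06 and 1.95 in GSK269962A libraries on day 14. GSK269962A day 8 library 1 and DMSO day 14 library 3 each stood away from their own group, toward the other pre-treatment. GSK269962A day 8 library 1 was Gm42418-high, unlike libraries 2 and 3 of its group, and had the highest epithelium mean, 7.33. DMSO day 14 library 3 was AY036118-high, as was library 1 of its group. The part of these traits in the positions of the 2 libraries was not tested.

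**Figure D5:**
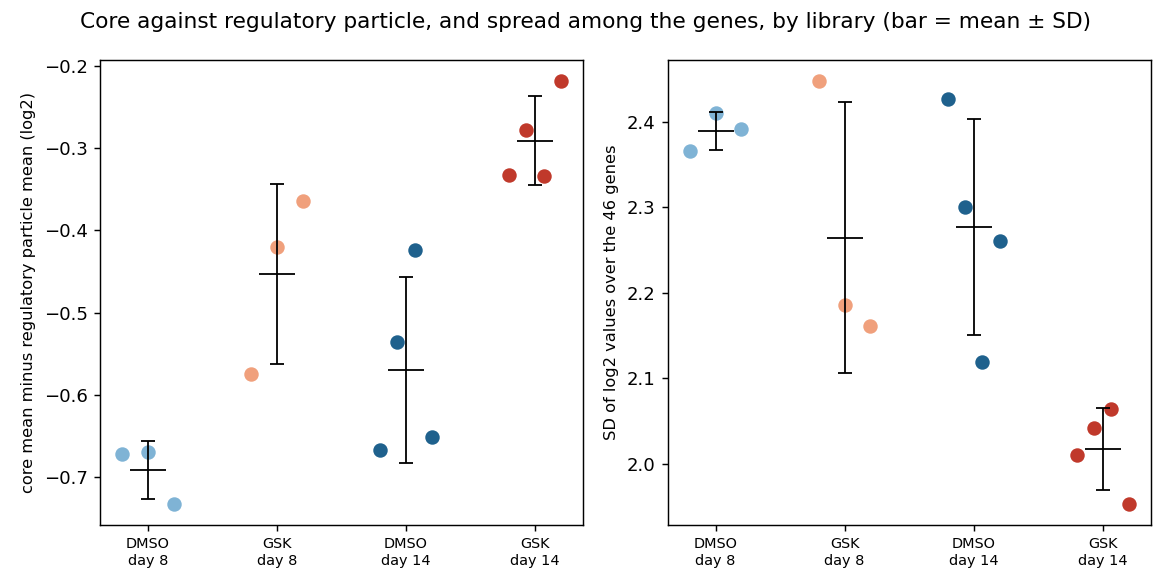
Left, core mean minus regulatory particle mean on the log2 scale, 1 point per library, with group mean and SD; right, the SD of log2 values over the 46 genes in each library. The 4 GSK269962A day 14 libraries are the highest on the left, at -0.33 to -0.22, and the lowest on the right, at 1.95 to 2.06.

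On day 8, the same pre-treatment comparison gave no gene past the threshold in limma, against 0.194% of all genes, and 5 of 46 at an unadjusted p under 0.05, against 16.3%. The lowest adjusted p belonged to Psmg3, the core assembly chaperone: 8.88, 8.63 and 8.42 in DMSO and 7.59, 8.00 and 7.82 in GSK269962A libraries. The groups did not overlap, and the log2 change was -0.84 (SE 0.21, adjusted p = 0.078). The others at an unadjusted p under 0.05 were Psmd2 (-0.75), Psmd4 (-0.63), Psmd9 (-0.47) and Psma6 (-0.46), all with negative changes. Psma6 stood at 12.16, 12.39 and 12.04 in DMSO and 12.16, 11.54 and 11.52 in GSK269962A libraries, so that GSK269962A library 1 lay among the DMSO libraries. Psmd13 had the same shape, with 12.21 in GSK269962A library 1 and 11.26 and 11.17 in libraries 2 and 3, and a change of -0.54 (adjusted p = 0.347). Leaving out each library in turn left the count at 0.

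Averaged over both days, 3 genes rose in limma, against 6.73% of all genes, and 7 fell, against 7.77%. Together they are 21.7% of the 46, against 14.5% of all. Those that rose were Psma2 (log2 change 0.69, adjusted p = 0.0094), Psma1 (0.55, adjusted p = 0.024) and Psmd14 (0.49, adjusted p = 0.031). The falls were Psmd2 (-0.75), Psmg3 (-0.74), Psmd13 (-0.71), Psma6 (-0.70), Psmd4 (-0.70), Psmd9 (-0.58) and the ATPase Psmc1 (-0.44), with adjusted p from 0.0026 for Psma6 to 0.028 for Psmc1. Psmc1 stood at 10.89, 10.65 and 10.73 in DMSO and 10.84, 10.15 and 10.15 in GSK269962A libraries on day 8, and at 10.68, 10.50, 10.14 and 10.57 against 9.84, 9.95, 10.11 and 10.02 on day 14. Its day 8 groups overlapped at GSK269962A library 1 and its day 14 groups did not. The count was 6 without GSK269962A day 8 library 2, and also 6 without library 3 of that group.

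The difference between the day 14 and the day 8 change was tested directly. None of the 46 passed in limma (lowest adjusted p = 0.576), against 0.00841% of all genes, and 2 did at an unadjusted p under 0.05, against 8.3%: Psma1 at 0.68 and Psme1 at -0.40. No gene is therefore shown to respond differently on the 2 days.

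Over time in DMSO tumours, from day 8 to day 14, no gene passed in limma, against 0.824% of all genes, and 3 did at an unadjusted p under 0.05, against 15.4%. These were Psmg3 (-0.56), Psmd2 (-0.57) and Psmd14 (0.46). In GSK269962A tumours 3 genes rose, against 3.05% of all genes, and 3 fell, against 3.95%, together 13.0% of the 46 against 7.01% of all. This comparison shares the GSK269962A day 14 libraries with the day 14 comparison above. Psma1, which stood at 6.998, 7.35 and 7.41 on day 8, rose by 0.97 (SE 0.21, adjusted p = 0.017). Psmd14 rose by 0.70 and Psmg2 by 0.53. Psma6 fell by 0.64 (adjusted p = 0.038), Psme2 by 0.59 and Psmd7, a lid subunit, by 0.51.

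Psmd7 stood at 11.28, 10.91 and 10.81 in GSK269962A libraries on day 8 and at 10.56, 10.62, 10.47 and 10.33 on day 14, with no overlap. The 4T1 epithelium list moved between these groups as well: 7 of its 9 measured genes fell, and the part of tumour cell RNA in the proteasome result was not tested beyond a fit with the epithelium mean as a covariate, in which no proteasome gene passed and the changes of Psma6 and Psmd7 were -0.28 and -0.075. Without GSK269962A day 8 library 1 they were -0.43 and -0.37. The count was 0 without GSK269962A day 8 library 1 or day 14 library 4, and 1 without GSK269962A day 8 library 2, DMSO day 14 library 4 or GSK269962A day 14 libraries 1, 2 or 3. It was 9 without DMSO day 14 library 1.

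Other genes of the pathway were read on day 14 from lists of proteasome partners, regulators and ubiquitin genes. Of 8 measured proteasome genes outside the symbol rule, 1 fell: Adrm1, a ubiquitin receptor of the regulatory particle, at -0.76 (adjusted p = 0.039 by limma), a share of 12.5% against 10.8% of all genes. It stood at 11.71, 11.50, 11.02 and 11.55 in DMSO and 10.81, 10.79, 10.79 and 10.35 in GSK269962A libraries, with no overlap. Pomp, the chaperone that matures the beta rings, had a change of -0.22 (adjusted p = 0.411). Of the inducible catalytic genes none passed: Psmb9 stood at -0.50 (adjusted p = 0.072), Psmb8 at 0.21 and Psmb10 at -0.15.

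Of 12 regulators of proteasome genes, 1 passed (8.33%, against 10.8% of all genes). Mafk, a small Maf partner of Nfe2l1 and Nfe2l2, stood at 9.91, 10.03, 9.77 and 9.89 in DMSO and 9.01, 8.88, 8.99 and 8.52 in GSK269962A libraries. All 4 lay well below the DMSO group, and Mafk fell by 1.05 (SE 0.14, adjusted p = 0.0013). Nfe2l1, the factor that raises proteasome genes when degradation is impaired, had a change of 0.04 (adjusted p = 0.932). Of 11 ubiquitin genes, Ube2n, a conjugating enzyme for signalling chains, fell by 0.85 and Rps27a, a ubiquitin and ribosomal fusion gene, by 0.59 (18.2% of the list). Of 12 shuttle and segregase genes, the autophagy receptor Sqstm1 fell by 0.69 and Nploc4, a cofactor of Vcp, by 0.69 (16.7% of the list). These lists are small, and their shares lie on both sides of the 10.8% over all genes. None in these lists rose on day 14, and Ubb, a polyubiquitin gene, stood at 0.79 (adjusted p = 0.0502). The share of 31-base words also found in another gene was 50.3% for Ubb, 28.5% for Rps27a and 27.4% for Adrm1. It was 16.4% for Sqstm1 and 10.1% for Ube2n. How reads were divided is uncertain for these genes too.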

How the data were processed

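RNA of F4/80+ cells was profiled in 14 libraries. The authors deposited 1 table of normalised values on a log2 scale; the exact transformation is not given in the sources used here. The submitters' processing notes name RSEM 1.2.29, Bowtie2, DESeq2 1.12.4 and the builds mm10 and GRCh38. The table holds no counts, so the depth of a library is unknown. Symbols, coordinates and lengths came from GENCODE M21 (GRCm38, the assembly of mm10): 24483 of 24556 identifiers matched. Transcript length is the median over a gene's basic protein-coding transcripts.

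Genes with a value of at least log2(10) in 3 libraries were fitted with limma 3.58.1 (R 4.3.3), with 4 group means and a trended variance, and p-values were two-sided and adjusted by Benjamini-Hochberg over all 11886 genes, with a threshold of 0.05. No pseudocount was added. The script was tested on simulated data. The genes and lists were chosen with earlier results of these data known. Genes named were those past the threshold, the extremes of each class, and catalytic, receptor, activator and assembly genes from a fixed list. Alternatives covered filters, pseudocount, scaling (TMM computed in R, quantile), variance trend, samples fitted, replicate block, rRNA genes, epithelium and each library left out. The last 3, chosen after seeing the data, were removing trends with GC content and with level, and a narrower core and regulatory set.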

Additional observations from a re-analysis of the deposited data

Results flagged for a closer look

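Of 58 groups of 4 libraries examined for single outlying values, 3 were picked out, each because 1 library lay far from the other 3 relative to the range of its group. Chance picks out about 1 in 20 such groups. Psmb7, the trypsin-like core subunit, was highest in DMSO day 14 library 3, at a log2 value of 6.445 against 5.95 to 6.004 in the other libraries. Psmb7 was also lowest in GSK269962A day 14 library 3, at 6.548 against 6.72 to 6.76. Psmd4, the ubiquitin receptor, was lowest in DMSO day 14 library 3, at 11.37 against 12.13 to 12.28. Without that DMSO library, 17 of the 46 genes passed on day 14 in place of 13.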

How the results depend on the processing

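On day 14, 13 of 46 genes passed; the count was 4 with no filter, 8 after quantile normalization, 3 with the ribosomal RNA gene split as a term, 5 in AY036118-high libraries only, 4 with the epithelium covariate, 22 without both day 8 libraries numbered 1, and 5 with the level trend removed. Leaving out 1 library gave 1 to 17. For the mean of both days (10 passed) the count was 6 with no filter, 5 with the split as a term, and 18 without both day 8 libraries numbered 1, and 6 to 15 when 1 library was left out. For day 14 against day 8 in GSK269962A tumours (6 passed) it was 1 with no filter, 3 after quantile normalization, 13 with only the groups compared, 1 with the split as a term, 1 in AY036118-high libraries, 0 with the epithelium covariate, 0 without both day 8 libraries numbered 1, 1 with the level trend removed, and 0 to 9 when 1 library was left out. The other 3 comparisons stayed at 0 under every alternative run. The cause of these shifts was not tested. Whether shared replicate numbers pair libraries was not settled: deviations correlated at -0.34 to 0.52 for the same number and -0.52 to 0.38 for other numbers. The value of 0.52 belonged to GSK269962A day 8 library 3 and DMSO day 14 library 3. With 3 or 4 libraries a group, these correlations cannot show that pairing is absent. With the replicate block, 8 genes passed on day 14 and 1 over time in GSK269962A tumours.

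Core minus regulatory values moved with the genes averaged. A pseudocount of 10 gave -0.59 in DMSO day 8 and -0.20 in GSK269962A day 14. A minimum of 50 gave 0.0075, 0.24, 0.13 and 0.41 in DMSO day 8, GSK269962A day 8, DMSO day 14 and GSK269962A day 14, medians gave -0.079, 0.18, -0.027 and 0.27, and the narrower set gave -0.35, -0.11, -0.23 and 0.042 in that order. GSK269962A means stayed above DMSO means on both days under each. Among values of single genes 4 changed sign: Psmg1 on day 14 (0.11) and Psme2b on day 8 (0.59) in AY036118-high libraries (on day 8 with 1 DMSO library, assumed to vary like the other groups), Pomp with the level trend removed (0.042) and Nfe2l1 on day 14 (0.043), which was -0.17 without DMSO day 14 library 1 and at most 0.16 with any other library left out. None of these 4 had passed.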
